A study of Homo sapiens with 11 samples.

Results

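The ABC drug efflux transporters are membrane pumps that use ATP to export drugs and conjugated metabolites. All 7 genes examined were found by Ensembl ID among the 57736 gene IDs of the count table: ABCB1 (ENSG00000085563), ABCC1 (ENSG00000103222), ABCC2 (ENSG00000023839), ABCC3 (ENSG00000108846), ABCC4 (ENSG00000125257), ABCC5 (ENSG00000114770) and ABCG2 (ENSG00000118777). They were measured by RNA-seq in HEC50B, a human endometrial cancer cell line. The unedited line has the R183W form of PPP2R1A, which holds the PP2A phosphatase together as its scaffold, and it was set against the same line made wild type (WT) with CRISPR. Each line received 50 µM of the KAT6A inhibitor WM1119, or vehicle, over 4 days; KAT6A is a histone acetyltransferase. R183W cells with WM1119 gave 2 libraries, and R183W cells with vehicle, WT cells with WM1119 and WT cells with vehicle gave 3 libraries each. Group values are means ± SD over these libraries. The sources used here do not say whether the WT line is a single clone, so the edit and a clonal difference cannot be told apart.

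Gene counts do not show a codon change or an enzyme's activity, so neither the R183W label nor the inhibition of KAT6A could be checked here. PPP2R1A read 34.3 ± 2.86 CPM, that is, counts relative to the size of the library, in R183W vehicle cells and 23.2 ± 2.69 CPM in WT vehicle cells (SD, n = 3 each). Library totals ran from 2609922 to 6065149 counts. WT WM1119 library 3 was the shallowest and stood apart: across genes its log2 CPM correlated at 0.917 and 0.937 with the other libraries of its group, against 0.957 to 0.975 for the remaining replicate pairs. Of the markers of the labelled cell type, the epithelial keratins KRT8 and KRT18, the adhesion molecule EPCAM and the Müllerian factor PAX8 were present. KRT19 had 2 counts in all and the Müllerian factor SOX17 had 0. The 6 epithelial markers summed to 1628 to 1629.8 CPM in R183W WM1119, 1653 to 1852 in R183W vehicle, 1170.5 to 1529.7 in WT WM1119 and 950.3 to 1212 CPM in WT vehicle libraries. Of these, 1 was at 0 counts in each R183W group and 2 in WT WM1119. Of 8 endometrial markers, 3 were at 0 counts in each R183W group and 2 in each WT group. They summed to 637 to 704 CPM in R183W WM1119 and 632 to 687 CPM in R183W vehicle libraries. In WT libraries the sums were 577 to 678 CPM with WM1119 and 443 to 558 CPM with vehicle. Of 6 leukocyte markers, 2 or 3 were at 0 counts in a group, CD3E in all 11 libraries, and the list summed to 3.62 to 5.76, 3.45 to 8.58, 3.08 to 8.67 and 5.08 to 11.6 CPM in the same groups. Of 3 endothelial markers measured, KDR and CDH5 were at 0 in every library and VWF had 7 counts, all in R183W vehicle libraries, where the sum reached 0.856 CPM. Of 6 fibroblast markers, DCN and COL3A1 were at 0 in every library, but COL1A1 lay between 565 and 927 CPM, and the list summed to 653 to 655 CPM in R183W WM1119, 825 to 1043 in R183W vehicle, 931 to 1049 in WT WM1119 and 687 to 835 CPM in WT vehicle libraries. All 5 mesenchymal markers were present, with sums of 941 to 967, 967 to 1002, 856 to 1013 and 1339.8 to 1385 CPM in those groups. The part of these marker levels in the results was not tested.

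ABCB1, also called P-glycoprotein or MDR1, exports bulky hydrophobic drugs such as taxanes and anthracyclines. ABCC1 to ABCC5 are the multidrug resistance-associated proteins MRP1 to MRP5, which export organic anions, many of them conjugates with glutathione, glucuronide or sulfate. ABCC2 is known for the apical membrane of polarised cells and ABCC3 for the basolateral one, while ABCC4 and ABCC5 also carry cyclic nucleotides. ABCG2, the breast cancer resistance protein, is a half-transporter that works as a dimer. The nuclear receptors PXR and CAR, the oxidative stress factor NRF2 and the aryl hydrocarbon receptor are known regulators of several of these genes.

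RefSeq promoter windows, which reach from 250 bases before to 50 bases after a transcript start on GRCh38.p14, matched 5 of the 7 genes. ABCC1 and ABCC3 were not matched. The windows of ABCB1 and ABCC2 are shown because these genes, with ABCC3, were the members whose R183W libraries did not overlap between WM1119 and vehicle. Each is written 5′ to 3′ on the minus strand for ABCB1 and on the plus strand for ABCC2, with the letters of any motif found in capitals. The positions are chr7:87600835-87601134 for the downstream ABCB1 start, chr7:87713246-87713545 for its upstream start and chr10:99782390-99782689 for ABCC2.
ABCB1 downstream start: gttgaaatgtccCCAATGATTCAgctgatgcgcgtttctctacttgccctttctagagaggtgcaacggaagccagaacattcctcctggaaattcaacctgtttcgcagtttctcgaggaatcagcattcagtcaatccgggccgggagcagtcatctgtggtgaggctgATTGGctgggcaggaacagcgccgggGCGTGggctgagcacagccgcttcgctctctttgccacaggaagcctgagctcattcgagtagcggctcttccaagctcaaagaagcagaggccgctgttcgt
ABCB1 upstream start: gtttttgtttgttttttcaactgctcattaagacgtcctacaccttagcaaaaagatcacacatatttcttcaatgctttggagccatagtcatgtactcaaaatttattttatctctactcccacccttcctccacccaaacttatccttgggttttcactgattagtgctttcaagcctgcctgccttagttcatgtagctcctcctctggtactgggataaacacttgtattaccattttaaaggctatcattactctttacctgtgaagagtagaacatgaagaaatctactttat
ABCC2: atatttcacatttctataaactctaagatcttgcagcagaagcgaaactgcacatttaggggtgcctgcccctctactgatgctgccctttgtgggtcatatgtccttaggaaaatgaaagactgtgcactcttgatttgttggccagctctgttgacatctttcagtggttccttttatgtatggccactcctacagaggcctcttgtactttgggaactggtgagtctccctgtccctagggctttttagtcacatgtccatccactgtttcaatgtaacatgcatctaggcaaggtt

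The motifs searched, on both strands, were the antioxidant response element core TGACNNNGC, the AP-1 site TGANTCA, the xenobiotic response element core GCGTG, the E-box CACGTG, the CCAAT box CCAAT and the GC box GGGCGG. The downstream ABCB1 window held 2 CCAAT boxes, 1 AP-1 site that overlaps one of them and 1 xenobiotic core. The upstream ABCB1 window and the ABCC2 window held none of the 6 motifs. ABCC4 held 1 antioxidant core and 3 xenobiotic cores in a window of 79.7% GC, and ABCC5 held 1 xenobiotic core and 1 GC box at 65.7% GC. ABCG2 had several windows, and that at chr4:88159241-88159540 held 1 antioxidant core. Those at 88158810-88159109 and 88158860-88159159, which overlap, each held 2 xenobiotic cores, 1 E-box and 2 GC boxes. The window at 88158590-88158889 held 2 xenobiotic cores, and that at 88231577-88231876 held none of the 6 motifs. Among 35116 RefSeq windows of the same length, 13.3% held the antioxidant core, 7.71% the AP-1 site, 36.5% the xenobiotic core, 7.26% the E-box, 34.6% the CCAAT box and 45.0% the GC box. The median window had 58.7% GC, against 55.3% and 37.7% for the downstream and upstream ABCB1 windows and 45.0% for ABCC2. A match of letters is a description only, and no binding was measured.

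The 7 transporters differed widely in level. Per length, taking CPM per kb of the longest protein-coding transcript, the order in R183W WM1119 cells was ABCC3 at 22.5, ABCC4 at 12.9, ABCC5 at 5.49, ABCC2 at 3.81 and ABCC1 at 0.484, with ABCB1 and ABCG2 at 0. In R183W vehicle cells ABCC3 again led, with 12.5 CPM per kb, ahead of ABCC4 at 10.5, ABCC5 at 5.63 and ABCC2 at 2.19. In WT WM1119 cells the leading values were 15.9 for ABCC3, 11.4 for ABCC4, 7.36 for ABCC5 and 3.60 CPM per kb for ABCC2. WT vehicle cells were the exception at the top of the order, with ABCC4 at 12.1 and ABCC3 at 11.4 CPM per kb and their libraries overlapping. The bottom of the order also held overlaps: ABCC1 at 0.439 and ABCB1 at 0.234 CPM per kb in R183W vehicle cells, and ABCB1 at 0.261 and ABCC1 at 0.221 in WT WM1119 cells. In WT vehicle cells ABCB1 at 0.638 CPM per kb stood above ABCC1 at 0.448 without overlap. Every other pair of neighbours in these orders had libraries that did not overlap, apart from ABCB1 and ABCG2 in R183W WM1119 cells, both at 0. These orders and overlaps rest on that transcript length. Per length of all merged exons, 11441 bases for ABCC5 and 7837 for ABCC2, ABCC5 and ABCC2 overlapped in R183W WM1119 cells. So did ABCC3 and ABCC4 in R183W vehicle cells and in WT WM1119 cells, while ABCC3 and ABCC4 no longer overlapped in WT vehicle cells. ABCC1 and ABCB1 no longer overlapped in R183W vehicle cells.

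**Figure D1:**
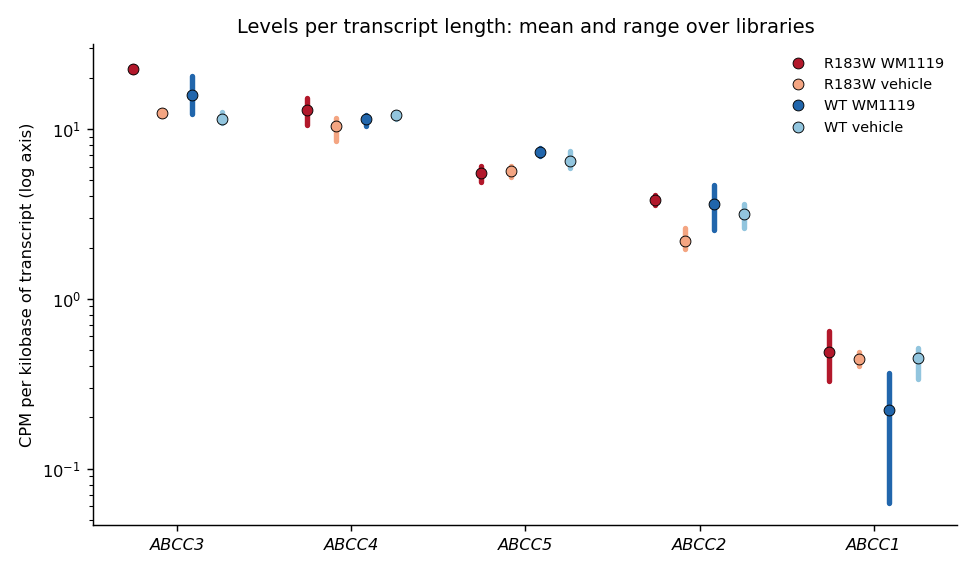
Level of the 5 ABCC transporters in each group as CPM per kb of the longest protein-coding transcript (log axis), with points for group means and lines for the range over libraries. ABCC3 stood highest in R183W WM1119 cells at 22.5 CPM per kb, and ABCC1 was under 1 in every group; ABCB1 and ABCG2 are left out because values of 0 cannot be drawn on a log axis.

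The first comparison asked what WM1119 did to these pumps in cells with mutant PPP2R1A. ABCC3, the basolateral conjugate exporter, rose, and it was the only member of the 6 tested that edgeR's quasi-likelihood test called. ABCC2 stood higher in both WM1119 libraries than in every vehicle library without passing the test. ABCB1 had no counts with WM1119 and few with vehicle, and ABCC4, ABCC5 and ABCC1 overlapped between the treatments. That is 1 of 6 members called, and higher, where 4.64% of the 13980 genes tested were called in either direction and 1.99% were called higher. At an unadjusted p under 0.05 there were 3 of 6 (ABCC3, ABCC2 and ABCB1), against 19.6% of all genes tested. Libraries did not overlap for 3 of the 6, a pattern seen in 46.8% of all genes tested, so this count of members does not stand out from the background. In bulk RNA, fewer cells that express a gene and less RNA per cell cannot be told apart. ABCG2 was not tested, because its counts were too low to pass the filter.

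ABCC3 read 123 and 134 CPM in R183W WM1119 libraries, against 73.8, 71.5 and 68.5 CPM in R183W vehicle libraries. Both WM1119 libraries lay above all 3 vehicle libraries, and the vehicle libraries lay close together. The log2 fold change was 0.85 (SE 0.18, 95% interval 0.46 to 1.25, edgeR adjusted p = 0.0184). Leaving out single libraries gave log2 fold changes of 0.78 to 0.90, so the size of the change moved little while its call did not always stay. Omitting R183W WM1119 library 1 or 2 gave edgeR adjusted p-values of 0.104 and 0.180, and omitting R183W vehicle library 2 or 3 gave 0.0715 and 0.0787. DESeq2 (adjusted p = 0.00138) and limma-voom (0.0156) also called ABCC3.

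ABCC2, the apical conjugate exporter, read 20.6 and 23.6 CPM in R183W WM1119 libraries, against 11.4, 11.6 and 15.2 CPM in R183W vehicle libraries. The groups did not overlap, but the gene did not pass the threshold. ABCC2 had a log2 fold change of 0.80 (SE 0.27, 95% interval 0.22 to 1.37, edgeR adjusted p = 0.117). The adjusted p was 0.0459 without WT WM1119 library 3, which is no library of this comparison but enters the shared estimate of the spread, and 0.0196 in a fit of the R183W libraries alone.

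ABCB1, the P-glycoprotein gene, had 0 counts in both R183W WM1119 libraries, against 5, 9 and 3 counts in R183W vehicle libraries, or 0.825, 1.93 and 0.608 CPM. It passed the filter on low counts through the WT libraries, where it is higher, so its presence among the genes tested is not independent of the pattern. This limit also applies to ABCB1 in the comparisons below. Taking 3 counts over the WM1119 group as the floor, which equals 0.401 CPM, the pooled vehicle level of 1.09 CPM was 2.71-fold that floor. By counting error alone, vehicle cells allowed 0.632 to 1.74 CPM and WM1119 cells up to 0.493 CPM. The fold of 2.71 leaves out the error of the vehicle level and is not a lower limit. ABCB1 was not called (edgeR adjusted p = 0.131). Without WT WM1119 library 3 the adjusted p was 0.0425.

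ABCC4, which exports cyclic nucleotides and nucleotide analogues, read 89.0 and 61.9 CPM in R183W WM1119 libraries, against 49.7, 68.1 and 65.9 CPM in R183W vehicle libraries. One WM1119 library was above all vehicle libraries and the other lay among them, and the log2 fold change was 0.31 (95% interval -0.09 to 0.70). ABCC5, a related nucleotide exporter, read 36.0 and 29.0 CPM in R183W WM1119 libraries, against 35.8, 33.4 and 30.8 CPM in R183W vehicle libraries. These values interleaved, and the log2 fold change was -0.03 (95% interval -0.43 to 0.36). ABCC1, the glutathione conjugate exporter MRP1, rested on 9 and 14 counts with WM1119, against 16, 15 and 14 with vehicle. At that depth the interval of its log2 fold change, -1.09 to 1.34, allows changes of more than 2-fold either way.

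**Figure D2:**
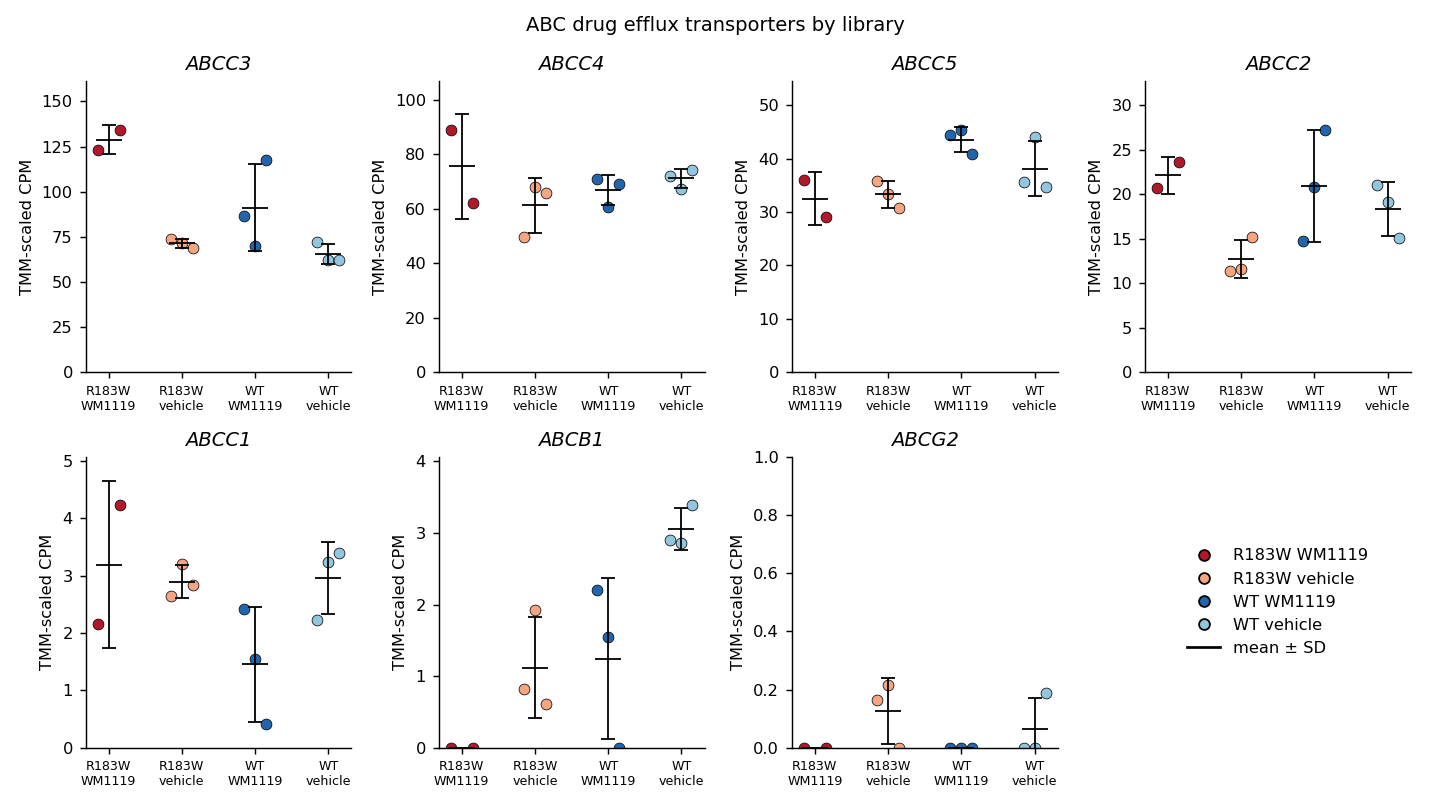
CPM of each transporter by group in 7 panels, 1 point per library, with the group mean and SD as bars (n = 2 for R183W WM1119 and 3 for each other group). ABCC3 lies at 123 and 134 CPM in R183W WM1119 libraries, above every library of the other groups, while ABCB1 is at 0 in both.

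The same question was asked in WT cells. There edgeR called 0 of the 6 members tested, against 4.86% of all genes tested. At an unadjusted p under 0.05 only ABCC3 passed, beside 21.3% of all genes, and DESeq2 and limma-voom each called 0. ABCB1 was the 1 member of 6 whose libraries did not overlap, against 22.3% of all genes tested. The median log2 fold change over the 6 members was 0.22 in R183W cells and 0.04 in WT cells, and the medians over all genes tested were -0.00107 and -0.00312. Setting ABCB1 in R183W WM1119 cells at its floor of 3 counts left the R183W median at 0.22. It could not move, because ABCB1 was the lowest of the 6 values either way.

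ABCC3 read 86.3, 69.6 and 117 CPM in WT WM1119 libraries, against 71.8, 62.1 and 62.1 CPM in WT vehicle libraries. Library 3, the one that stood apart, held the highest value, and library 2 fell within the vehicle range. The log2 fold change was 0.47 (SE 0.17, 95% interval 0.11 to 0.83, edgeR adjusted p = 0.126), and it was 0.26 (adjusted p = 0.303) without library 3. ABCC2 read 14.7, 20.8 and 27.2 CPM in WT WM1119 libraries, against 21.0, 19.1 and 15.1 CPM in WT vehicle libraries, and library 3 was again the highest. ABCC2 thus had a log2 fold change of 0.17 (95% interval -0.35 to 0.69), and -0.05 without library 3.

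ABCB1 had 10, 6 and 0 counts in WT WM1119 libraries, against 13, 15 and 18 counts in WT vehicle libraries, or 2.20, 1.54 and 0 CPM against 2.90, 2.86 and 3.39 CPM. All 3 WM1119 libraries lay below all 3 vehicle libraries, and the library at 0 was library 3, where a count of 0 allows up to 1.24 CPM. The log2 fold change was -1.13 (SE 0.71, 95% interval -2.68 to 0.41, edgeR adjusted p = 0.393), and -0.69 without library 3. ABCC1 had 11, 6 and 1 counts in WT WM1119 libraries, against 10, 17 and 18 in WT vehicle libraries, and overlapped. ABCC1 had a log2 fold change of -0.90 (95% interval -2.07 to 0.26), and -0.56 without library 3. ABCC4 and ABCC5, both well measured, overlapped between the treatments and had log2 fold changes of -0.09 (95% interval -0.45 to 0.27) and 0.20 (95% interval -0.15 to 0.54). Without library 3 these were -0.11 and 0.24 (edgeR adjusted p = 0.786 and 0.476).

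Whether the inhibitor acted differently in the 2 genotypes was tested with the interaction, the log2 fold change in R183W cells minus that in WT cells. For ABCC3 it was 0.38 (SE 0.25, 95% interval -0.15 to 0.92, edgeR adjusted p = 0.699), and for ABCC2 0.63 (SE 0.36, 95% interval -0.15 to 1.41, adjusted p = 0.652). ABCC3 was thus called in R183W cells and not in WT cells, but its 2 responses were not shown to differ. Without WT WM1119 library 3 the ABCC3 difference was 0.57 (edgeR adjusted p = 0.168) and that of ABCC2 0.82 (0.268). The test called 0 of 6 members, none of them at an unadjusted p under 0.05, against 0.286% and 9.30% of all genes tested. DESeq2, which gave no adjusted p for ABCB1 and ABCC1, and limma-voom also called 0 members.

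**Figure D3:**
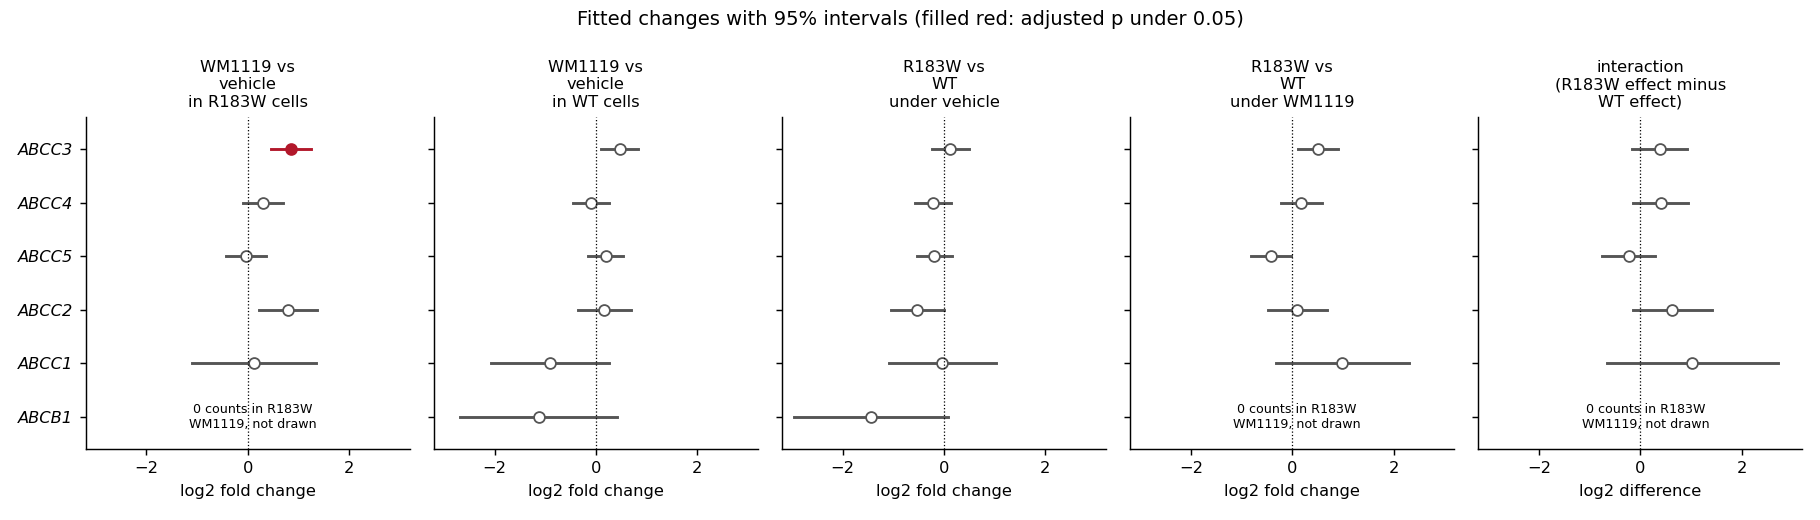
Fitted log2 fold changes of the 6 transporters tested, with 95% intervals, for WM1119 against vehicle in R183W and in WT cells, for R183W against WT with vehicle and with WM1119, and for the interaction; filled red marks an edgeR adjusted p under 0.05. ABCC3 in R183W cells with WM1119, at 0.85, is the 1 filled point, and ABCB1 is not drawn where R183W WM1119 cells had 0 counts.

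The genotypes were then compared under each treatment. With vehicle, edgeR called 0 of 6 members, against 13.0% of all genes tested, and 1 member, ABCC2, passed at an unadjusted p under 0.05, against 27.5% of all genes. DESeq2 and limma-voom called 0. ABCB1 was the 1 member of 6 without overlap, with 0.825, 1.93 and 0.608 CPM in R183W vehicle libraries, against 2.90, 2.86 and 3.39 CPM in WT vehicle libraries; 37.8% of all genes tested had no overlap. Its log2 fold change was -1.45 (SE 0.70, 95% interval -2.97 to 0.08, edgeR adjusted p = 0.205). Because ABCB1 passed the filter through its WT libraries, its place among the genes tested is not independent of this pattern. ABCC2 averaged 12.7 ± 2.16 CPM in R183W vehicle cells and 18.4 ± 3.02 CPM in WT vehicle cells (SD, n = 3 each). The groups overlapped by a narrow margin, R183W library 3 at 15.2 CPM and WT library 3 at 15.1 CPM, and the log2 fold change was -0.53 (95% interval -1.05 to -0.01, edgeR adjusted p = 0.175). ABCC3 averaged 71.3 ± 2.62 CPM in R183W vehicle cells and 65.4 ± 5.62 CPM in WT vehicle cells (SD, n = 3 each), a difference within the spread of the libraries.

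With WM1119, edgeR again called 0 of 6 members between R183W and WT cells, against 8.56% of all genes tested. At an unadjusted p under 0.05 there were 3 (ABCB1, ABCC3 and ABCC5), against 23.7% of all genes, and limma-voom called 0. DESeq2 called 1, ABCB1, at an adjusted p of 0.0439. ABCB1 had 0 counts in both R183W WM1119 libraries, against 10, 6 and 0 counts in WT WM1119 libraries, so that the groups share a value of 0. Over the group, the pooled WT WM1119 level of 1.47 CPM was 3.67-fold the R183W WM1119 floor of 0.401 CPM. By counting error alone, WT WM1119 cells allowed 0.842 to 2.39 CPM and R183W WM1119 cells up to 0.493 CPM. The fold of 3.67 is therefore not a lower limit. ABCB1 was not called by edgeR (adjusted p = 0.0796). Without WT WM1119 library 3 the ABCB1 adjusted p was 0.0119.

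ABCC3 and ABCC5 were the members whose WM1119 libraries did not overlap between genotypes, 2 of 6, against 34.8% of all genes tested. ABCC3 averaged 129 ± 7.99 CPM in R183W WM1119 cells (SD, n = 2) and 91.1 ± 24.2 CPM in WT WM1119 cells (SD, n = 3). The log2 fold change of ABCC3 was 0.51 (SE 0.18, edgeR adjusted p = 0.111), and 0.70 (adjusted p = 0.00318) without WT WM1119 library 3, which held the highest WT value. ABCC5 was 36.0 and 29.0 CPM in R183W WM1119 libraries, against 44.4, 45.5 and 40.9 CPM in WT WM1119 libraries, a log2 fold change of -0.42 (SE 0.18, edgeR adjusted p = 0.181), and -0.48 (adjusted p = 0.0878) without WT WM1119 library 3. The comparisons within a genotype and within a treatment share libraries, so their values are not independent of each other.

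Summed over the 7 genes, the transporters held 271 and 253 CPM in R183W WM1119 libraries, against 174, 190 and 184 CPM in R183W vehicle libraries. In WT cells the sums were 221, 199.6 and 255 CPM with WM1119 and 205, 199 and 193 CPM with vehicle. ABCC3 made up 45.4% and 53.1% of the summed counts in R183W WM1119 libraries, against 42.3%, 37.7% and 37.3% in R183W vehicle libraries. Its share was 39.1%, 34.9% and 46.0% in WT WM1119 libraries, against 35.0%, 31.3% and 32.2% in WT vehicle libraries. ABCC3 and ABCC4 together thus supplied most of the transporter counts in every library, and the sum follows them.

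ABCG2 had 3 counts in all 11 libraries: 1, 1 and 0 in R183W vehicle libraries, 1 in a single WT vehicle library, and 0 in all WM1119 libraries. All groups were at or under the floor of 3 counts, so no fold is given. A difference in ABCG2 was not detectable at this depth. ABCB1 lies beside its close paralog ABCB4, a phospholipid floppase, and reads from matching stretches could be shared between them in estimated counts. ABCB4 averaged 18.8 CPM in R183W WM1119, 21.8 in R183W vehicle, 12.0 in WT WM1119 and 13.9 in WT vehicle cells, and was called in none of the comparisons. In GENCODE release 29 no other gene shared exon bases with any of the 7 members.

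The genes most like ABCC3 across the 11 libraries, by Pearson correlation of log2 CPM among 9962 protein-coding genes with a mean of at least 5 CPM, were RDH13 (r = 0.965), PCYOX1 (0.958) and SMIM1 (0.955). RDH13 encodes a retinol dehydrogenase and PCYOX1 a prenylcysteine oxidase. The libraries share 4 groups, so these values describe likeness over the groups and carry no test.

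Other ABC genes were compared by count. Of 41 such genes, 24 were tested, and 2 rose with WM1119 in R183W cells, with a median log2 fold change of 0.07. Over all genes tested, 1.99% were called higher in that comparison. ABCB6, a porphyrin transporter of organelles, averaged 116 ± 4.63 CPM in R183W WM1119 cells (SD, n = 2) and 64.5 ± 3.77 CPM in R183W vehicle cells (SD, n = 3). Its log2 fold change of 0.85 (SE 0.15, edgeR adjusted p = 0.00506) had the size of that of ABCC3. Omitting R183W WM1119 library 1 or 2 ended the ABCB6 call (0.0862 and 0.0576). ABCA3, a phospholipid transporter of lamellar bodies, averaged 54.1 ± 8.95 CPM with WM1119 and 30.1 ± 3.69 CPM with vehicle in R183W cells. The change of ABCA3 on the log2 scale was 0.84 (SE 0.22, edgeR adjusted p = 0.0447). ABCA3 lost its call when R183W WM1119 library 1 or 2 was omitted (adjusted p = 0.130 and 0.364), and likewise for R183W vehicle library 1 (0.122), 2 (0.0854) and 3 (0.161), WT WM1119 library 2 (0.0703) and WT vehicle library 2 (0.0722).

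In WT cells edgeR called 0 of the 24 other ABC genes with WM1119, 1 was higher at an unadjusted p under 0.05, and DESeq2 and limma-voom called 0. The median there was -0.04. Of all genes tested, 4.86% were called and 21.3% had an unadjusted p under 0.05. By edgeR the interaction also called 0 of the 24, so the responses of the 2 genotypes were not shown to differ. With vehicle, ABCA12, a lipid transporter of epidermal lamellar granules, averaged 12.0 ± 2.48 CPM in R183W cells and 3.88 ± 0.930 CPM in WT cells (SD, n = 3 each). On the log2 scale ABCA12 was higher by 1.63 (SE 0.32, edgeR adjusted p = 0.00427). ABCA1, the cholesterol exporter, was lower, with 14.2 ± 3.06 CPM in R183W vehicle cells and 28.9 ± 4.48 CPM in WT vehicle cells, a log2 fold change of -1.02 (SE 0.25, edgeR adjusted p = 0.0161). ABCA1 lost its call when R183W vehicle library 2 (0.0541) or 3 (0.0774), or WT vehicle library 2 (0.0577) or 3 (0.0739), was omitted. These 2 were the calls among the 24 with vehicle, where 13.0% of all genes tested were called. Between the genotypes with WM1119 that share was 8.56%. With WM1119, ABCB6 was the 1 call, at 116 ± 4.63 CPM in R183W cells and 58.2 ± 5.67 CPM in WT cells, a log2 fold change of 1.00 (SE 0.15, edgeR adjusted p = 0.00094), and it was called with any single library omitted. With WT WM1119 library 3 omitted, the ABCB6 change was 1.05 (edgeR adjusted p = 0.000165). In that fit the WM1119 comparison of genotypes called 3 higher and 1 lower among the 24, against 2895 of all 13897 genes tested. The inhibitor comparison in R183W cells called 4 higher there, against 1600 of the 13897 called, 686 of them higher.

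**Figure D4:**
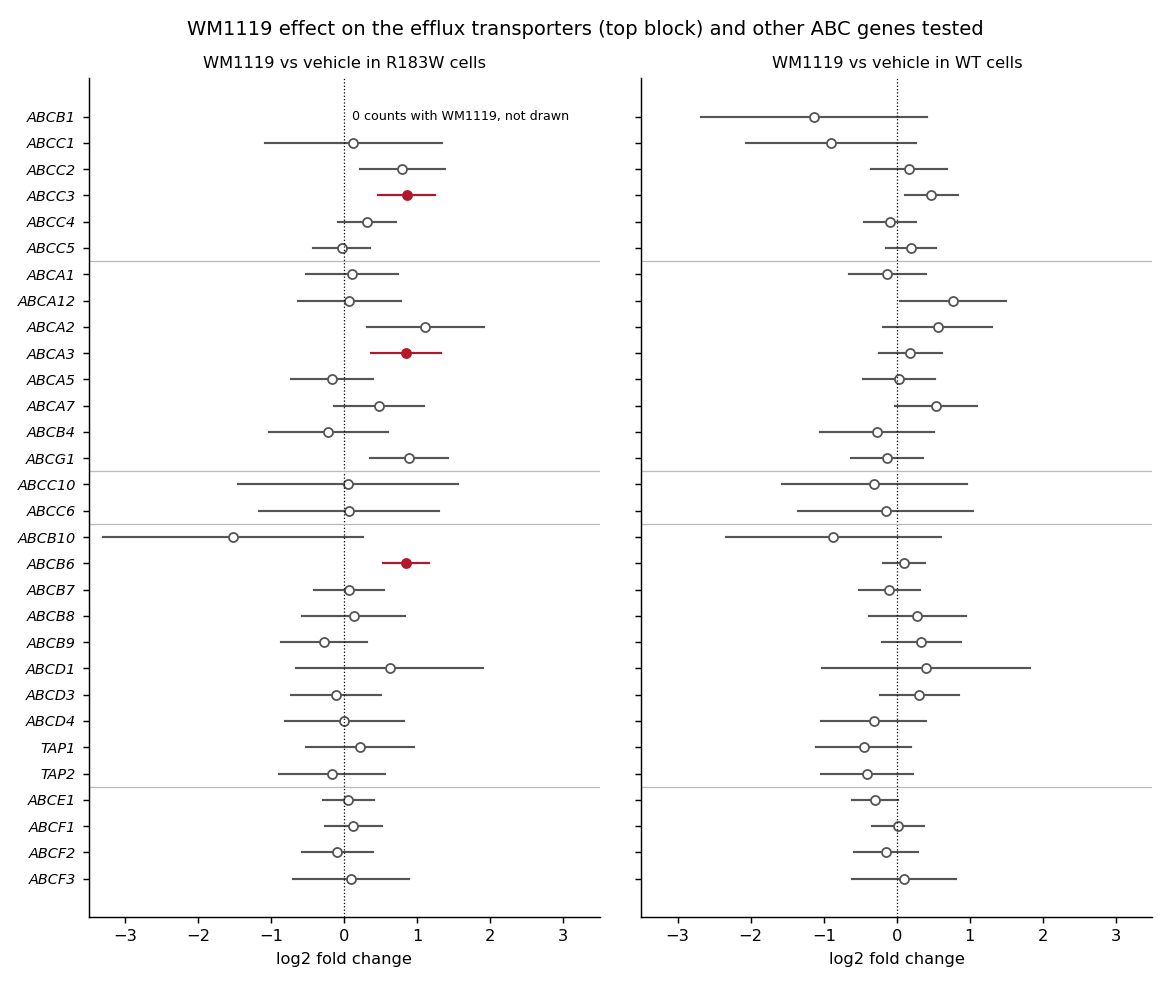
Log2 fold change with WM1119 against vehicle in R183W cells (left) and WT cells (right), with 95% intervals, for the 6 efflux transporters tested (top block) and the 24 other ABC genes tested; filled red marks an edgeR adjusted p under 0.05. ABCC3, ABCA3 and ABCB6 are filled in R183W cells, none is filled in WT cells, and ABCB1 is not drawn in R183W cells, where it had 0 counts with WM1119.

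Known regulators of the transporters were measured as transcripts only, 20 of a list of 24 being tested. NFE2L2, which encodes NRF2, averaged 100 ± 14.1 CPM with WM1119 and 94.5 ± 10.8 CPM with vehicle in R183W cells, a log2 fold change of 0.08 (edgeR adjusted p = 0.844). AHR, the aryl hydrocarbon receptor, averaged 69.9 ± 5.83 CPM with WM1119 and 48.3 ± 9.10 CPM with vehicle in R183W cells, and was not called (edgeR adjusted p = 0.154). In an edgeR fit of the R183W libraries alone AHR was called (adjusted p = 0.0251). NR1I2, which encodes PXR, had 0 counts in all 11 libraries, and NR1I3, which encodes CAR, had 4 counts, all in WT WM1119 libraries. PPARA, a fatty acid receptor, was the 1 regulator of 20 called with WM1119 in R183W cells, against 4.64% of all genes tested. It averaged 57.6 ± 9.90 CPM with WM1119 (SD, n = 2) and 25.9 ± 2.98 CPM with vehicle (SD, n = 3), a log2 fold change of 1.15 (SE 0.19, edgeR adjusted p = 0.00445). With R183W WM1119 library 2 omitted, which leaves 1 library in that group, the PPARA log2 fold change was 0.96. Without WT WM1119 library 3 the list held 3 higher and 1 lower, against 1600 of all 13897 genes tested.

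In WT cells 2 of the 20 regulators fell with WM1119, against 4.86% of all genes tested called in either direction. HIF1A, the hypoxia-inducible factor, had a log2 fold change of -0.72 (SE 0.13, edgeR adjusted p = 0.00792), which stayed called with any single library left out and was -0.67 (0.00739) without WT WM1119 library 3. FOXO1, a forkhead factor, had a log2 fold change of -0.74 (SE 0.19, edgeR adjusted p = 0.0431), which stayed called only without WT WM1119 library 1 or WT vehicle library 3; the other 9 omissions gave 0.0577 to 0.193, and without WT WM1119 library 3 it was -0.68 (0.0577). Without WT WM1119 library 1 the list held 3 higher and 2 lower, against 1392 of all 13882 genes tested. By edgeR the interaction called 0 of the 20. DESeq2 called PPARA in it (log2 difference 1.33, adjusted p = 0.00361), as did edgeR without WT WM1119 library 3 (adjusted p = 0.0234).

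The transporters export conjugates, so genes of conjugation and of uptake were counted as well. Where 1.99% of all genes tested were called higher with WM1119 in R183W cells, 3 of 15 genes tested for glutathione synthesis and transfer were. Among them GCLM, the modifier subunit of the enzyme that limits glutathione synthesis, averaged 106 ± 13.0 CPM with WM1119 (SD, n = 2) and 55.1 ± 1.44 CPM with vehicle (SD, n = 3) in R183W cells. GCLM had a log2 fold change of 0.94 (SE 0.20, edgeR adjusted p = 0.0184), which gave 0.0583 to 0.206 when any one R183W library was omitted. The other 2 were the glutathione transferases GSTM3, which has close paralogs, and GSTK1. Both lost their calls when R183W WM1119 library 1 or 2 or R183W vehicle library 2 or 3 was omitted (0.0675 to 0.291), as did GSTM3 for R183W vehicle library 1 (0.0784) and GSTK1 for WT vehicle library 2 (0.0510). In WT cells edgeR called 0 of the 15, 1 was higher at an unadjusted p under 0.05, and DESeq2 and limma-voom called 0. There was 1 call without WT WM1119 library 1 or 3. Over all genes tested, 1392 of 13882 and 842 of 13897 were called in those fits. Of 9 genes tested for glucuronide and sulfate conjugation, 1 rose in R183W cells and 1 in WT cells. By edgeR the interaction called 0 of these 9 and 0 of the 15 glutathione genes. UGDH, which makes UDP-glucuronic acid, averaged 209 ± 9.79 CPM with WM1119 and 106 ± 7.95 CPM with vehicle in R183W cells, a log2 fold change of 0.98 (SE 0.20, edgeR adjusted p = 0.0119). Omitting R183W WM1119 library 1 or 2 raised this p to 0.142 and 0.117, and omitting R183W vehicle library 1 or 2 raised it to 0.0593 and 0.0581. Omitting WT WM1119 library 1 or 3 or WT vehicle library 3 gave 2 calls of the 9 in R183W cells. Over all genes tested, 821 of 13882, 1600 of 13897 and 598 of 13863 were called in those fits. The gene called in WT cells was the sulfotransferase SULT1C2, with a log2 fold change of 0.52 (SE 0.12, edgeR adjusted p = 0.0296), which stayed called only without R183W vehicle library 1 or WT WM1119 library 1 or 3 and gave 0.0516 to 0.136 otherwise. The SULT1C2 change was 0.57 (edgeR adjusted p = 0.0127) without WT WM1119 library 3.

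Of 11 drug uptake carriers tested, 2 fell with WM1119 in R183W cells and the same 2, SLCO1B3 and SLCO4A1, fell in WT cells. Of all genes tested, 4.64% and 4.86% were called in either direction in these comparisons. SLCO1B3, an organic anion carrier, averaged 4.81 ± 1.68 CPM with WM1119 and 15.7 ± 2.67 CPM with vehicle in R183W cells, and 5.59 ± 3.05 CPM with WM1119 and 25.9 ± 3.27 CPM with vehicle in WT cells. Its log2 fold changes were -1.68 (SE 0.39, edgeR adjusted p = 0.0256) in R183W cells and -2.13 (SE 0.33, edgeR adjusted p = 0.00248) in WT cells, and -1.81 (adjusted p = 0.000539) in WT cells without WT WM1119 library 3. In R183W cells SLCO1B3 lost its call when R183W WM1119 library 1 (0.110) or 2 (0.276), or R183W vehicle library 2 (0.0986) or 3 (0.0748), was omitted. SLCO4A1, a carrier of the same family, averaged 154 ± 7.09 CPM with WM1119 and 243 ± 20.3 CPM with vehicle in R183W cells, and 135 ± 16.1 CPM with WM1119 and 212 ± 13.6 CPM with vehicle in WT cells. Its log2 fold change was -0.66 in both (edgeR adjusted p = 0.0188 in R183W cells and 0.0106 in WT cells). SLCO4A1 lost its call in R183W cells when R183W WM1119 library 1 (0.180) or 2 (0.146) or R183W vehicle library 2 (0.0560) was omitted, and in WT cells when WT vehicle library 2 was (0.0507). The SLCO4A1 change in WT cells was -0.66 (edgeR adjusted p = 0.00579) without WT WM1119 library 3.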

How the data were processed

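RNA-seq was done on 11 libraries of HEC50B cells in 4 groups. The authors deposited expected counts, that is, estimated counts per gene, which were whole numbers in the table. STAR, RSEM and the hg19 build are named, without versions or roles, per the submitters' processing notes; the annotation and strand setting are not given in the sources used here. Symbols were taken from a gene name reference for 51959 of 57736 IDs. Gene types, lengths and exon overlaps were taken from GENCODE release 29. Promoter windows were RefSeq's (GRCh38.p14). Members, gene lists and tests were chosen with earlier results of these data known.

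Genes passing filterByExpr (13980, holding at least 99.7% of each library's counts) were tested with edgeR 4.0.16 in R 4.3.3: TMM factors, 4 group means, all 11 libraries, two-sided quasi-likelihood F test, Benjamini-Hochberg adjustment over all genes tested, called at an adjusted p under 0.05. The biological coefficient of variation was 19.6%. CPM values are TMM-scaled. A count of 0 allows 0.495 to 1.24 CPM per library (3 counts, counting error only). The p-values set the difference between groups against the spread of the libraries within groups, estimated over all 11. The labels do not say that replicates are separate cultures, so that spread may be only technical. Every member was named; of other lists, at most 4 called genes per comparison with the largest changes, and any regulator, could be named. DESeq2 1.42.0, limma 3.58.1 (voom), other factors and filters, a replicate block, fits of only the groups compared and single-library omissions were the alternatives. The fit was tested on simulated data. Figures were drawn with matplotlib 3.10.9.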

Additional observations from a re-analysis of the deposited data

How the results depend on the processing

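Of 561 recomputed member changes, 549 kept their side of the threshold, 7 gained a call and 5 lost one; none that was called reversed, and 8 uncalled values changed sign. The number of members called for WM1119 in R183W cells was 2 in a fit of only those groups, where 2406 of 13215 genes tested were called. It was 0 with the replicate block by edgeR (ABCC3 adjusted p = 0.0512, 3 at an unadjusted p under 0.05), where 261 of 13980 were called. With single libraries left out it was 0 to 3. The 3 came without WT WM1119 library 3, where 1600 of 13897 genes were called. For R183W against WT under WM1119 the number of members called was 1 with DESeq2, which called 1510 genes in all. It was 1 by edgeR with no filter on low counts (ABCB1 adjusted p = 0.028), where 1783 of 23410 genes were called. With single libraries left out it was 0 to 2. The 2 came without WT WM1119 library 3, where 2895 of 13897 genes were called. In the other comparisons it stayed at 0 under all alternatives run. The ABCB1 and ABCC1 values with 0 to 18 counts a library are limited by depth.

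Over all genes, WM1119 in R183W cells gave 649 calls, against 975 with DESeq2, 1110 with no filter, 2406 with only the groups compared, 261 with the replicate block and 118 to 1600 with single libraries left out. WM1119 in WT cells gave 680, against 1086, 1287, 139, 287 and 247 to 1392 in the same order. R183W against WT under vehicle gave 1817, against 2929 with only the groups compared, 1189 with the block and 965 to 3151 with single libraries left out. Under WM1119 it gave 1197, against 319, 678 and 386 to 2895. The interaction gave 40, against 157 with DESeq2, 191 with no filter, 0 by edgeR with the block (1023 at an unadjusted p under 0.05) and 0 to 192 with single libraries left out. The cause of these shifts was not tested. With the block in place 259 of the 649 calls in R183W cells remained. Of the other genes named, it left without an edgeR call in R183W cells ABCA3 (adjusted p = 0.135), GCLM (0.0526), GSTM3 (0.0948), GSTK1 (0.0957), UGDH (0.0627), SLCO1B3 (0.0778) and SLCO4A1 (0.0572), and in WT cells FOXO1 (0.0952) and SULT1C2 (0.0807). The calls of ABCB6 (0.0318) and PPARA (0.0119) in R183W cells and of HIF1A, SLCO1B3 and SLCO4A1 in WT cells (0.0156 to 0.039) stayed. With only the groups compared, HIF1A (0.0607), FOXO1 (0.16), SULT1C2 (0.149) and SLCO4A1 (0.0725) were not called in WT cells. The labels do not say whether same-numbered libraries are pairs. Their deviations from the group means correlated at -0.391 to 0.137 over 15 pairs, 2 of them over 0.1. Of 11 libraries, 0 correlated best with its own number. These correlations cannot decide it, because with 2 libraries in R183W WM1119 the deviations mirror each other. The fit of only the groups compared does not apply to the interaction, and where it filtered out a gene it gave no value for it.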
